A study of Mus musculus with 11 samples.

Results

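The regions described here are open chromatin regions of mouse embryonic stem cells that had fewer ATAC-seq counts when chromosome 13 carried the DBA/2J version of a congenic interval than when it carried the C57BL/6J version. They lie on chromosomes 1 to 19 other than chromosome 13, so they lie in trans to it. ATAC-seq cuts open DNA with the Tn5 transposase and counts the cut fragments, and a region's CPM is its count scaled to the library's total count in regions. Members were chosen on these counts: B6 had a mean of at least 1 CPM and at least 1.5 times that of B6-13D2, D2-13B6 had at least 1.5 times the mean of D2, and in neither comparison did the libraries overlap. The rule found 1700 members among 248336 regions, or 0.946% of the 179748 eligible regions (chromosomes 1 to 19 without 13, B6 mean of at least 1 CPM). Because the counts chose them, the difference between the interval genotypes is a description and carries no test.

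The study compared 4 embryonic stem cell lines, 1 line per genotype, with technical replicate libraries of 100000 cells each. All were grown in serum with LIF, PD0325901 (an inhibitor of MEK) and CHIR99021 (an inhibitor of GSK3). B6 (3 libraries) is the inbred strain C57BL/6J and D2 (3 libraries) is the inbred strain DBA/2J. B6-13D2 (2 libraries) is the congenic strain B6.D2-(rs30079041-rs51756099)/Bakr, which carries D2 sequence in a part of chromosome 13 on the B6 background. D2-13B6 (3 libraries) is the reverse, B6 sequence in that part on the D2 background; the sample labels name it D2.B6-(rs29224292-rs13469455)/Bakr and the series design gives the second marker as rs51756099. Because each genotype is 1 cell line, p-values cover technical variation only, and the effects of genotype and of the single line cannot be told apart. Total counts in regions were 15198496 to 27293140 in B6, 18807653 to 20022534 in B6-13D2, 29172484 to 43042955 in D2-13B6 and 34945034 to 39770267 in D2. The smallest mean that made a region eligible was therefore about 15.2 counts in the shallowest B6 library and 27.3 in the deepest.

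Chromosome 13 of the mouse holds a large cluster of genes for KRAB zinc finger proteins, repressors that bind DNA through arrays of zinc fingers and recruit heterochromatin to their sites. Many of them bind transposable elements. The most abundant transposable elements of the mouse genome are LINE-1 retrotransposons, whose youngest families start with a promoter built of tandem repeat units, followed by 2 long reading frames. AP-1 is a different kind of DNA-binding factor, a dimer of FOS and JUN proteins that acts at enhancers downstream of growth factor and stress signals.

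Sequence divided the members into 3 classes, and the class with a shared repeat differed from the others in its order of lines. A search of every member against every other found 277 members that shared at least 100 bp at 80% identity or more with another, and 262 of them formed a single set. In the member that shares sequence with most others, the stretch best covered by other members is here called the repeat core. It is 349 bp long with 62.8% GC. At its deepest point 209 other members cover it, and 210 members (12.4%) hold it. A further 784 members (46.1%) hold no repeat core but have the AP-1 motif TGANTCA in the 300 bp around their middle, and 706 (41.5%) hold neither. The same split of the eligible regions gave 1199 with the repeat core (0.667%), 24090 with the motif and no core, and 154459 with neither. The mirrored set, 1259 regions that are higher with the D2 interval in both backgrounds by the same rule turned round, holds 0 repeat cores and has the AP-1 motif in 8.18%. Shared sequence as such is not particular to the members. In the same search 371 mirrored regions (29.5%) shared sequence with another, against 16.3% of members. The largest mirrored set held 304 regions (24.1%), against 15.4% of members in theirs.

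The 8-letter word ACCCGCAA marks the repeat core. It was picked on odd-numbered chromosomes, where 9.16% of members and 0.693% of eligible regions hold it, and on even-numbered chromosomes it was in 10.5% of members and 0.762% of eligible regions. The word was present in 1122 of the 1199 eligible regions with the core, and a single 30-base window around it was identical in 498 of them. That window and those of 5 members are shown from the GRCm38 reference, 5′ to 3′, with the word in capitals, because they show how alike the copies on different chromosomes are.
most frequent window: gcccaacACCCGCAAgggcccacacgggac
chr2:145140081-145140110, plus strand, member 27 kb from Slc24a3: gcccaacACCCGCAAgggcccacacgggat
chr5:134028488-134028517, plus strand: gcccaacACCCGCAAgggcccacacggaac
chr11:12906308-12906337, minus strand: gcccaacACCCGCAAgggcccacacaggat
chr16:42779657-42779686, minus strand, intron of 4932412D23Rik: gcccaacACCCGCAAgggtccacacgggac
chr15:103767419-103767448, plus strand, the member that shares sequence with most others: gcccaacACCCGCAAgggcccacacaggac
Each of the 5 windows differs from the most frequent one at 1 or 2 bases. Reads from such copies can map to several places, how the authors treated them is not given in the sources used here, and counts of single copies are uncertain and not independent of each other. Copies were found in the reference only, and their sequence in D2 was not examined. How sequence differences from the reference bear on comparisons of copies between B6 and D2 backgrounds was not tested.

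The AP-1 members share a motif, and 3 of the 784 belong to the sequence set above. Of the AP-1 members, 6 are shown for 41 bases centred on the motif nearest the middle of the region, GRCm38 plus strand, with the motif in capitals.
chr11:30933896-30933936, intron shared by Asb3 and Erlec1: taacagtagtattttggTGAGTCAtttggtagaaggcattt
chr11:44943972-44944012, intron of Ebf1: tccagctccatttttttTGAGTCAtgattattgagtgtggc
chr2:135863945-135863985, intron of Plcb4: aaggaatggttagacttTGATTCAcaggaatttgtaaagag
chr6:84561318-84561358, 26 kb from Cyp26b1: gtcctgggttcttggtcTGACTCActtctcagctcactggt
chr15:38932667-38932707, 296 bp from the Baalc start site: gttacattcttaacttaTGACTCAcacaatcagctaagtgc
chr2:27096898-27096938, 248 bp from the Adamtsl2 start site: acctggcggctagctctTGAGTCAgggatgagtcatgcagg
The flanks differ between loci, and the Adamtsl2 window holds a second copy of the motif to the right of the first.

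Levels across the 4 lines set the repeat-core members apart from the other classes. The repeat-core members had their highest median in B6 (2.58, 2.73 and 2.67 CPM in the 3 libraries). They had 1.10 and 1.01 CPM in B6-13D2, 1.82, 1.86 and 1.78 in D2-13B6, and 1.04, 0.919 and 1.09 in D2. In these members the 2 lines with the D2 interval were at about the same level, but the rule chose members for lower counts in both. The 989 eligible repeat-core regions that are not members had a median of 1.75 CPM in B6. Their D2-13B6 median, 0.894 CPM, lay between those of the lines with the D2 interval (B6-13D2 0.946, D2 0.826). The AP-1 members were highest in D2-13B6 (6.08, 7.17 and 6.20 CPM) and next in D2 (3.06, 3.54 and 3.13), above B6 (1.83, 2.07 and 2.06) and B6-13D2 (1.10 and 1.17). The members with neither followed the AP-1 order, with 4.72 to 5.39 CPM in D2-13B6, 2.34 to 2.77 in D2, 1.87 to 2.04 in B6 and 1.10 to 1.12 in B6-13D2.

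**Figure D1:**
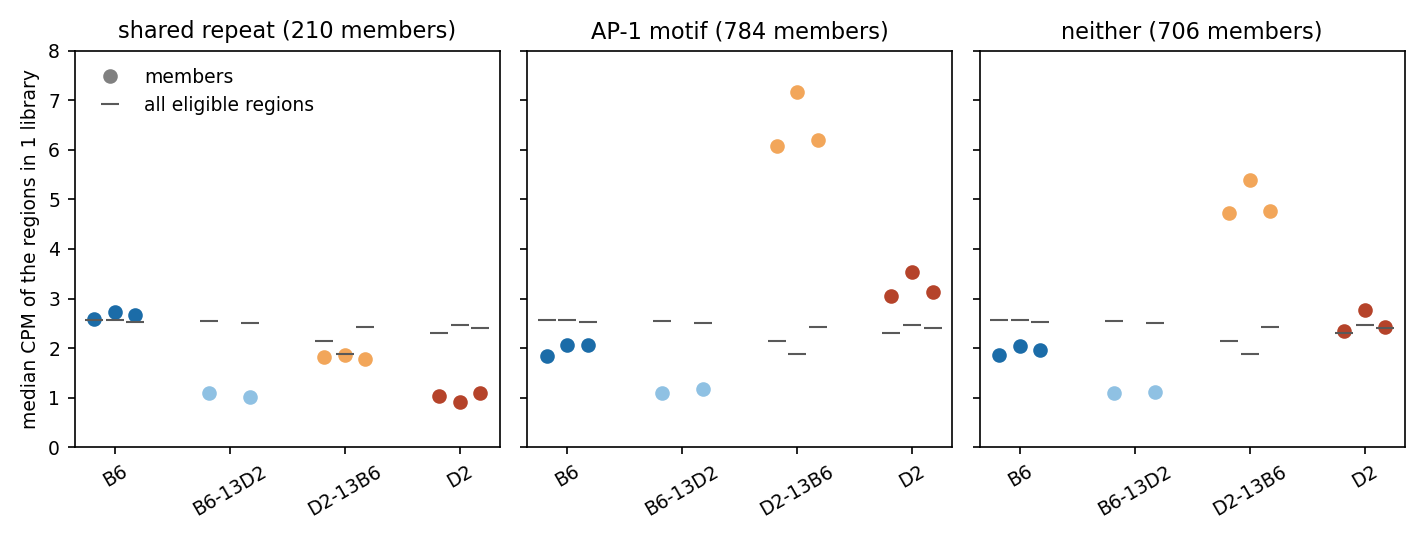
Median CPM over the members of each sequence class (y axis, linear) in each of the 11 libraries (points, by line on the x axis), with the median over all 179748 eligible regions in the same library as a dash. The repeat-core members peak in B6 at 2.58 to 2.73, and the AP-1 members peak in D2-13B6 at 6.08 to 7.17.

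Single members followed these medians. Among the repeat-core members, all B6 libraries were above all D2 libraries in 191 of 210 (91.0%), and none had all D2 libraries above all B6 libraries. Among the AP-1 members, all D2 libraries were above all B6 libraries in 563 of 784 (71.8%) and below them in 20. Among all eligible regions, the D2 libraries were all above the B6 libraries in 16.6% and all below in 28.3%. The order D2-13B6 over D2 over B6 over B6-13D2 was found in 724 AP-1 members (92.3%), 506 members with neither (71.7%) and 0 repeat-core members. It was found in 72.4% of all members. The rule fixes 2 of the directions in this order, and 53.4% of the eligible regions with those 2 directions had it too. Of all members, 239 (14.1%) had every library with the B6 interval above every library with the D2 interval. The rule itself requires part of that separation. The share of eligible regions with it was not computed, so nothing is read from the count.

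The 2 conditions of the rule were met to different degrees by the 3 classes of eligible regions. Of the 1199 eligible repeat-core regions, 868 (72.4%) met the condition on B6 and B6-13D2 (the B6 condition), against 4.99% of all eligible regions. Only 271 (22.6%) met the condition on D2-13B6 and D2 (the D2 condition), against 10.6% of all eligible regions, and 15 were at least 1.5 times higher in D2 than in D2-13B6, against 14.7%. The AP-1 regions showed the reverse: 1351 of 24090 (5.61%) met the B6 condition and 9271 (38.5%) the D2 condition. AP-1 motifs were as common among the other regions that met the D2 condition (49.0% of 17334 that are no members) as among members, and were in 7.92% of the 7261 other regions that met the B6 condition. The rule used these values, so they describe where the members come from.

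**Figure D2:**
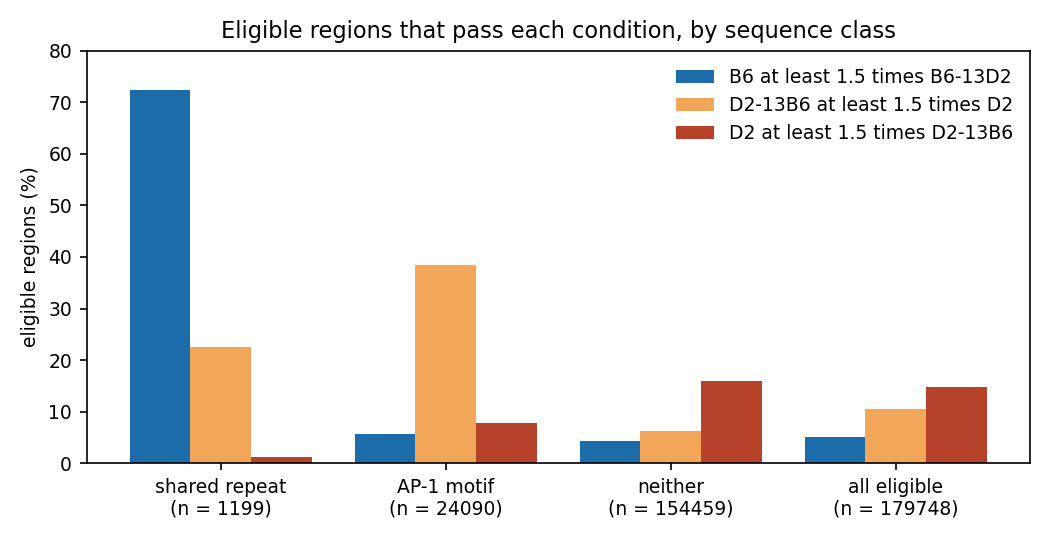
Share of eligible regions (y axis, percent) in each sequence class that meet the B6 condition of the rule (blue), the D2 condition (orange) or the reverse of the D2 condition (red). The blue bar reaches 72.4% for the repeat-core regions, and the orange bar reaches 38.5% for the AP-1 regions.

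Copies of the repeat core outside the members mostly had lower counts in B6-13D2 than in B6, and less uniformly so in D2 than in D2-13B6. The class was defined from members chosen on these libraries, and reads of one copy can be counted in another, so the values of the other copies are a description. The rule never used chromosome X, where the table lists 196 regions with the core. The counts of these regions summed to 128, 140 and 144 CPM in the B6 libraries and to 71.8 and 60.9 in B6-13D2. In the D2 background they summed to 111, 113 and 110 CPM in D2-13B6 and to 77.4, 67.4 and 86.2 in D2. The libraries did not overlap in either background, and the means were 137 ± 8.32 against 66.3 ± 7.70 on the B6 background (SD, n = 3 and 2), and 111 ± 1.37 against 77.0 ± 9.40 on the D2 background (SD, n = 3 each). The B6 interval was higher by 2.08 times on the B6 background and 1.45 times on the D2 background, as ratios of geometric means.

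Single copies on chromosome X were tested with edgeR's quasi-likelihood test, with Benjamini-Hochberg adjustment over all regions and a threshold of 0.05. Of the 157 copies tested, 16 (10.2%) were called lower in B6-13D2 than in B6 and 0 higher, where 0.395% of all tested regions of chromosome X were called lower. In the D2 background 26 (16.6%) were called lower in D2 than in D2-13B6 and 0 higher, against 8.13% of the chromosome. The estimate was negative for 141 copies (89.8%) in each background, with median log2 fold changes of -0.98 and -0.68; the median over the chromosome's regions without the core was 0.04 and 0.14. The count of 16 fell to 5 and 8 without B6-13D2 replicates 1 and 2, and the count of 26 fell to 15 without D2-13B6 replicate 2 and to 13 without D2 replicate 2. How much these counts share with those of copies on other chromosomes was not tested.

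The 2051 repeat-core regions of chromosomes 1 to 19 without 13 that are not members summed to 2779 ± 72.5 CPM in B6 and 1453 ± 73.6 in B6-13D2 (SD, n = 3 and 2). In D2-13B6 they summed to 1506, 1348 and 1589 CPM, and in D2 to 1219, 1157 and 1360 CPM. The B6 libraries did not overlap those of B6-13D2, and in the D2 background the D2-13B6 libraries overlapped those of D2. Of the 1895 of these regions tested, 244 (12.9%) were called lower in B6-13D2 than in B6 and 0 higher, beside 0.306% of all tested regions on these chromosomes called lower. In the D2 background 226 (11.9%) were called lower, below the 15.5% of all tested regions called lower. Only 6 (0.317%) were called higher, against 7.66% of the non-members without the core. The median log2 fold change was -0.79 on the B6 background and -0.41 on the D2 background. The interaction is the change with the D2 interval on the B6 background minus that on the D2 background. The change was called more negative on the B6 background in 123 of these regions (6.49%) and on the D2 background in 7 (0.369%). Among non-members without the core the 2 shares were 1.63% and 4.71%. Of all tested regions 6.3% were called in either direction. Chromosome 13, which carries the interval itself, differed. Of its 121 copies 114 were tested, and 24 were called lower and 1 higher in B6-13D2 than in B6, beside 0.859% of all tested regions of the chromosome called lower and 1.23% higher. In D2 against D2-13B6, 3 were called lower and 5 higher, beside 13.2% and 26.4% of the chromosome's regions. The median log2 fold changes of these copies were -0.89 and -0.11.

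**Figure D3:**
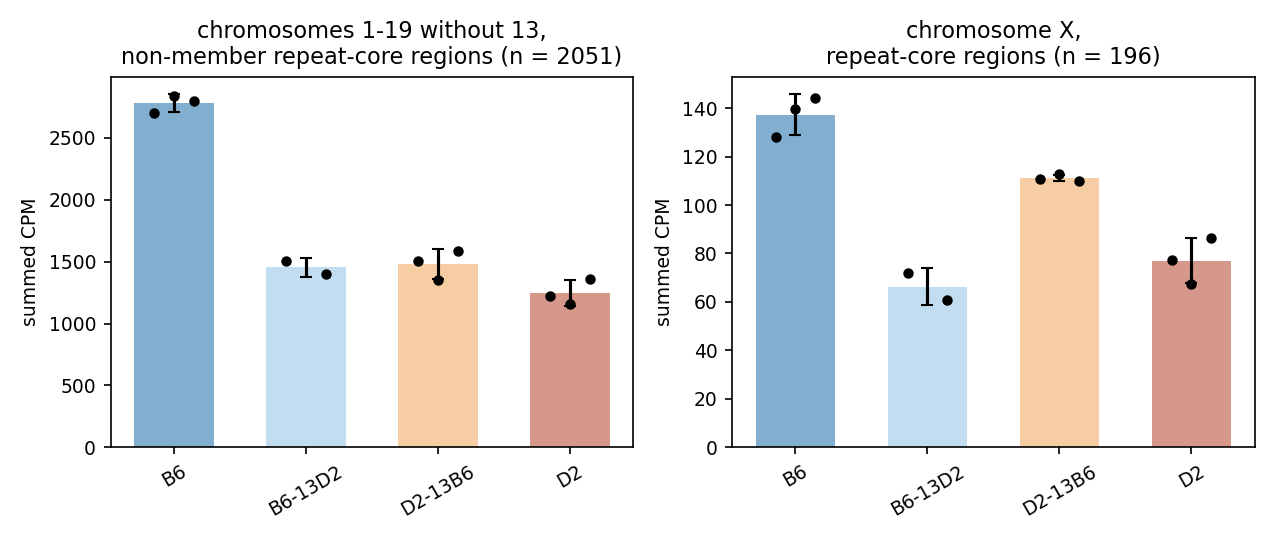
Summed CPM (y axes, from 0) of repeat-core regions that are not members, on chromosomes 1 to 19 without 13 (left, 2051 regions) and of all repeat-core regions on chromosome X (right, 196 regions), by line. Bars are means, whiskers are SD and points are libraries; on chromosome X the B6 libraries (128 to 144) lie above those of B6-13D2 and the D2-13B6 libraries (110 to 113) above those of D2.

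The genome holds 4284 sites of the repeat core on these chromosomes. Of these, 2221 overlap a region of the table and 210 overlap a member. An open reading frame of at least 1000 codons lies within 8000 bp downstream, on the same strand, of 1283 sites (29.9%), of 885 sites in a region of the table (39.8%) and of 51 sites in a member (24.3%). The share was thus lower for sites in members than for all sites. A long reading frame follows the promoter in LINE-1 elements, but neither the files nor the annotation used here name the repeat. Shifted by 198 bp, the offset without gaps that matched best, the sequence of 1 member from the core on was identical to itself at 46.6% of positions. That offset was chosen for its match, so the value by itself does not show tandem units. The repeat-core members were 84.7% soft-masked repeat at the median, 796 bp wide and 113 kb from the nearest start site of a protein-coding gene. Of these 210 members, 144 (68.6%) were intergenic and 6 lay at a promoter, within 1000 bp of a start site.

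The AP-1 motif was most frequent near the middle of the members, and also near the middle of eligible regions. It was within 25 bp of the midpoint in 307 members (18.1%), in 3.33% of eligible regions and in 1.91% of the mirrored set. These shares are over all regions of each set, so they also reflect how often the motif occurs at all. Its position in the other regions that met the D2 condition was not measured. In 195 members (11.5%) the central 300 bp held at least 2 motifs, against 1.71% of eligible regions. Both strands are covered, since the motif reads the same on either with N as any base, and a form with C or G at that position was in 672 of the 784 AP-1 members. The member share of TEAD sites (GGAATG, both strands, bound by the factors of the Hippo pathway) was 26.2%, beside 19.6% of eligible regions and 26.6% of the other regions that met the D2 condition. The octamer ATGCAAAT of OCT4, a core pluripotency factor, was in 1.65% of members, 2.70% of eligible regions and 5.96% of the mirrored set. Sites of CTCF, which anchors chromatin loops, were in 1.06% of members and 2.58% of eligible regions, and the GC box of SP factors (GGGCGG) in 5.94% and 14.3%. A match of letters does not show that a factor is bound.

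**Figure D4:**
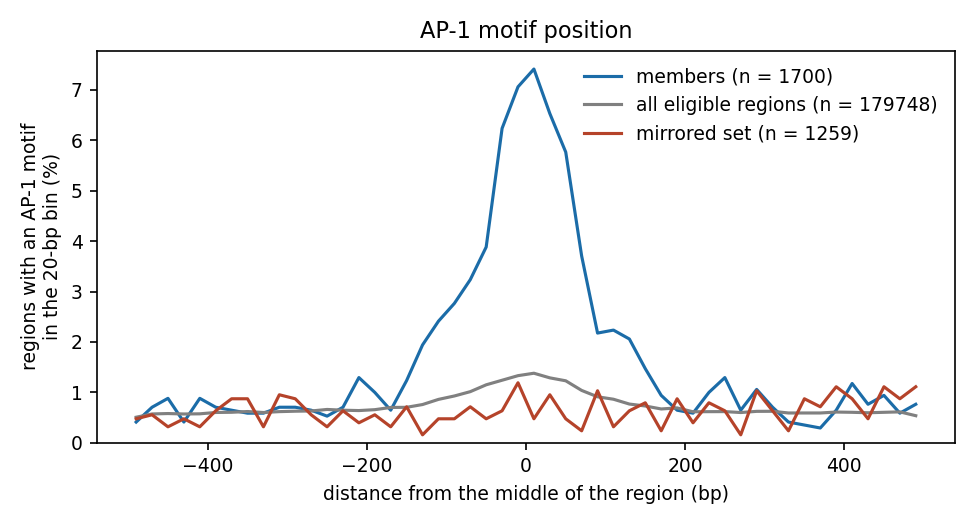
Share of regions (y axis, percent) with an AP-1 motif TGANTCA in each 20-bp bin by distance from the middle of the region (x axis, bp), for the members, all eligible regions and the mirrored set. The members rise to 7.41% in the bin just right of the middle, where the eligible regions also have their highest share, 1.38%. The mirrored set reaches at most 1.19%.

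Other words were counted in the members with neither feature, and the differences in share were not tested. The form TGANTAA, which differs from TGANTCA at its sixth letter, was in 209 of 706 (29.6%), against 12.3% of the eligible regions with neither. TEAD sites, which are unrelated to that motif, were in 31.9% of them against 19.3%, and the RUNX word TGTGGT in 36.4% against 22.9%. The words TGANTAA and TGTGGT were chosen after these members' sequences were seen. This class also holds 49 members of the 262-member sequence set whose sequence matches the set outside the core.

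Markers of cell state moved between the D2-background lines, and these values stand beside the AP-1 result. The promoters of 10 embryonic stem cell genes, all present in the table, summed to 268 to 301 CPM in D2-13B6, to 434 to 460 in D2, to 519 to 533 in B6-13D2 and to 522 to 525 in B6. Pou5f1, which encodes OCT4, had a mean of 39.1 CPM, summed over its 2 promoter regions, in D2-13B6, 69.5 in D2 and 94.9 in B6. Klf4 went the other way, with 60.7, 51.7 and 43 CPM at its 1 promoter region. The promoters of 8 fibroblast genes, chosen because feeder cells are fibroblasts, summed to 98.9 to 112 CPM in D2-13B6, to 64.9 to 78.0 in D2, to 57.4 to 62.9 in B6-13D2 and to 65.3 to 72.0 in B6. Col1a1, summed over its 3 promoter regions, led that list with 42.2 CPM in D2-13B6, 26.3 in D2 and 22.6 in B6. Col3a1 and Lum had no promoter region in the table. Postn was low, with 1.04 CPM in D2-13B6, 0.878 in D2 and 1.31 in B6. Primitive endoderm promoters (7 of 7 in the table) summed to 139 to 142 CPM in D2-13B6 and 131 to 142 in D2, trophoblast promoters (5 of 5) to 112 to 121 and 140 to 153, and early neural promoters (5 of 5) to 86.9 to 99.9 and 114 to 133. Single primitive endoderm genes moved in opposite directions. Dab2, summed over 2 promoter regions, had 28.3 CPM in D2-13B6 and 18.9 in D2. Sox17, with 1 promoter region, had 15.0 and 26.9. The part of these marker differences in which regions met the D2 condition was not tested.

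The members were narrower and lay less often at promoters than eligible regions, as did the other regions that met 1 of the 2 conditions; these differences were not tested. The median width was 432 bp in members, 651 bp in eligible regions and 588 bp in the mirrored set. It was 474 bp in the other regions that met the D2 condition and 508 bp in those that met the B6 condition. At a promoter lay 130 members (7.65%), 18.1% of eligible regions and 9.93% of the mirrored set, and 10.8% and 8.29% of the other regions that met the D2 or the B6 condition. Of the members, 761 (44.8%) were intronic and 726 (42.7%) intergenic. Members were spread over all 18 chromosomes searched, and 110 (6.47%) had another member within 10 kb, with a median gap of 299 kb to the nearest. Of the 1980 bins of 1 Mb with at least 20 eligible regions, 969 held no member and 24 held 5 or more. Zinc finger genes lay within 50 kb of 17 members (1.0%; 2.34% of eligible regions), olfactory receptor genes near 17 (1.0%; 0.773%), and no Hox or histone gene was that near a member.

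The 12 members with the largest weaker ratio, the smaller of the 2 interval ratios after adding 0.1 CPM to each mean, include 5 of the repeat set and 7 others. The first lies in an intron of Asb3 and Erlec1 (chr11:30933731-30934061). Erlec1 encodes a lectin of the endoplasmic reticulum. The region had 0.733, 0.592 and 1.69 CPM in B6, 0.450 and 0.106 in B6-13D2, 4.74, 6.22 and 4.97 in D2-13B6, and 1.11, 2.54 and 2.06 in D2. The D2-13B6 libraries were above all others, and the B6 mean of 1.00 CPM fell to 0.662 without replicate 3. The region in an intron of Ebf1 (ENSMUSG00000057098.14, a transcription factor of B cell development; chr11:44943803-44944147) had the same shape, with 0.921 to 1.59 CPM in B6, 0.372 and 0.499 in B6-13D2, 5.02 to 5.87 in D2-13B6 and 1.06 to 2.58 in D2.

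The region in an intron of Plcb4 (ENSMUSG00000039943.16, a phospholipase of G protein signalling; chr2:135863710-135864081) was higher. It had 1.36, 1.71 and 2.30 CPM in B6, 0.749 and 0.585 in B6-13D2, 8.71, 9.20 and 8.47 in D2-13B6, and 3.72, 3.33 and 3.92 in D2. All D2 libraries were above all B6 libraries although D2 lacks the B6 interval. The region 26 kb from Cyp26b1, which encodes an enzyme that degrades retinoic acid (chr6:84561122-84561591), had 2.16 to 3.09 CPM in B6, 0.949 and 1.28 in B6-13D2, 9.29 to 12.3 in D2-13B6 and 3.97 to 4.92 in D2. A region 8.83 kb from Cdhr3, a cadherin gene, and one in an intron of the transcript Gm41333 had 1.02 and 1.17 CPM at the mean in B6, with neither sequence feature. They rose to means of 4.38 and 5.45 CPM in D2-13B6.

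The region 50 kb from Vps54 (chr11:21188532-21189687), a gene of vesicle tethering, differed from these. It had 4.84, 5.79 and 3.80 CPM in B6 and 4.74, 3.56 and 4.80 in D2-13B6, so that the 2 lines with the B6 interval overlapped. B6-13D2 had 2.897 and 1.06 CPM, so that its mean of 1.98 fell to 1.06 without replicate 1. D2 had 1.56, 1.97 and 1.86 CPM and overlapped B6-13D2. It holds neither sequence feature.

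The repeat members among the 12 were highest in B6 or near it. The region 27 kb from Slc24a3, a sodium, potassium and calcium exchanger gene (chr2:145139491-145140273), had 4.87, 5.07 and 4.31 CPM in B6, 1.30 and 0.691 in B6-13D2, 2.16, 1.89 and 1.85 in D2-13B6, and 0.528, 0.838 and 0.773 in D2. The copy on chromosome 5 (chr5:134028368-134028791) had 1.36, 2.895 and 1.97 CPM in B6, 0.699 and 0.744 in B6-13D2, 1.26, 1.79 and 1.23 in D2-13B6, and 0.528, 0.325 and 0.200 in D2. The copies chr2:39892502-39893157 and chr11:12905764-12906616 had B6 means of 2.08 and 2.37 CPM, D2-13B6 means of 1.42 and 2.20, and D2 means of 0.395 and 0.895. The region 34 kb from the vomeronasal receptor gene Vmn2r82 belongs to the set without holding the core, and was highest in D2-13B6 (5.03 ± 1.32 CPM, SD, n = 3). Outside the 12, a copy on chromosome 4 (chr4:74505158-74505642) had 1.16 CPM in B6 and 0.245 in D2.

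**Figure D5:**
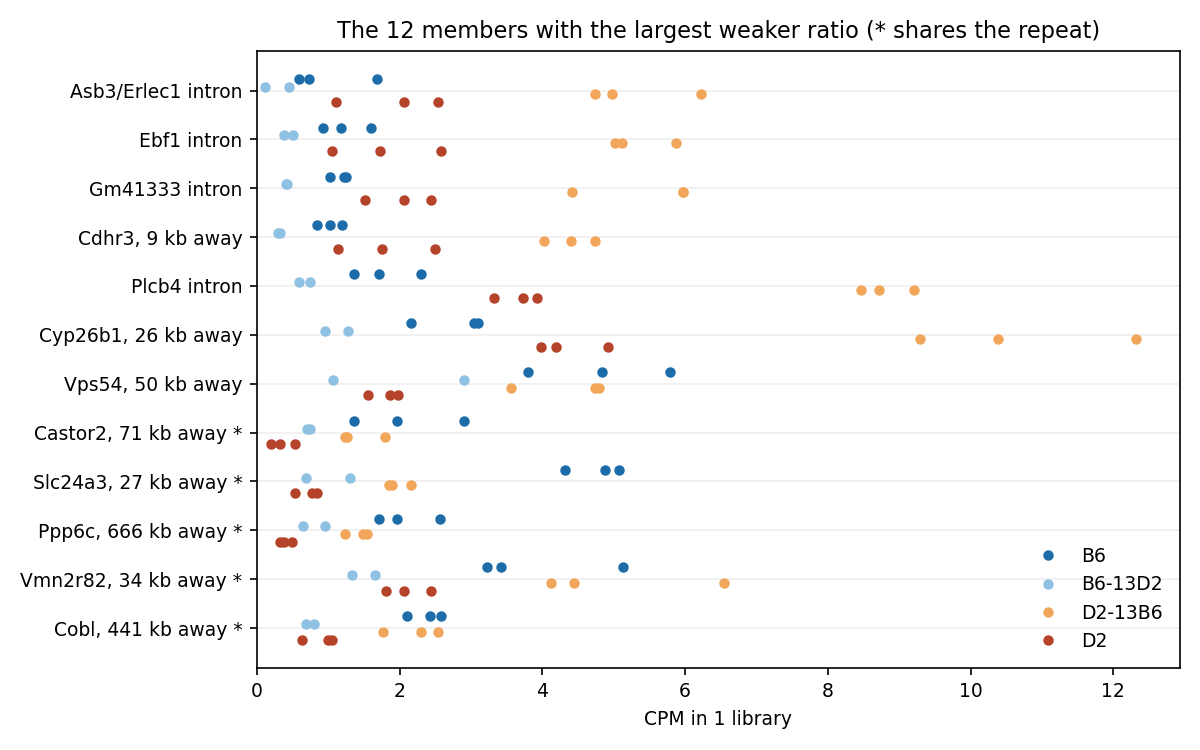
CPM in each library (x axis, linear) of the 12 members with the largest weaker ratio (y axis, by overlapped gene or nearest protein-coding gene), coloured by line. In the first 6 rows D2-13B6 lies right of all other lines, and in the rows of Vps54 and of the repeat set, marked with a star, the B6 libraries lie level with D2-13B6 or right of it, except near Vmn2r82.

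The members with the highest counts were wider. A region in an intron of Pde4b (ENSMUSG00000028525.16, a cAMP phosphodiesterase; chr4:102492860-102495117) had 21.8, 26.3 and 22.4 CPM in B6, 9.14 and 12.1 in B6-13D2, 17.5, 24.3 and 22.6 in D2-13B6, and 11.1, 17.3 and 11.3 in D2. Lines with the same interval overlapped, whatever the background. A wide repeat-core region in an intron of 4932412D23Rik (chr16:42779533-42783446) had 17.2 to 21.0 CPM in B6, 12.1 and 13.0 in B6-13D2, 24.1 to 27.2 in D2-13B6 and 12 to 17.6 in D2. In an intron of Acnat1, an acyltransferase gene, a region of the repeat set had means of 13.8, 6.34, 7.81 and 4.61 CPM in B6, B6-13D2, D2-13B6 and D2. An intergenic region of the set on chromosome 12 (chr12:20842829-20845822) had lower counts in both lines on the D2 background, with 11 to 13.4 CPM in B6, 5.09 and 6.01 in B6-13D2, 1.35 to 2.37 in D2-13B6 and 0.629 to 1.12 in D2. The region in an intron of Bicd1, a gene for an adaptor of the dynein motor (chr6:149471110-149472212), had 12.6, 12.3 and 13.1 CPM in B6 and 2.25 and 2.50 in B6-13D2. It had 3.37, 2.94 and 4.22 CPM in D2-13B6 and 1.63, 1.11 and 2.09 in D2.

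Promoters were few among the members. The largest weaker ratio among protein-coding promoters was at Gm8113 (chr14:43924760-43925938), part of the repeat set, with means of 8.65, 3.26, 9.74 and 4.62 CPM in B6, B6-13D2, D2-13B6 and D2. At Xaf1, which encodes an inhibitor of an anti-apoptotic protein (chr11:72300642-72302805), the libraries had 16.6 to 17.4 CPM in B6, 9.89 and 11.1 in B6-13D2, 21.1 to 24.95 in D2-13B6 and 13.4 to 15.5 in D2. The promoter of Htr2a, a serotonin receptor gene (chr14:74640688-74641456), had 4.31 ± 0.712 CPM in B6 and 2.07 ± 0.746 in B6-13D2 (SD, n = 3 and 2). D2-13B6 had 8.25 ± 1.05 and D2 had 4.58 ± 0.649 (SD, n = 3 each). Regions with an AP-1 motif lay 296 bp from the start site of Baalc, a gene expressed in neural and early blood cells, and 138 bp from that of Lrrk1, a kinase gene. Their means were 2.30, 1.16, 8.63 and 3.97 CPM, and 1.26, 0.639, 3.25 and 1.59 CPM, in the same order of lines. The other named promoters were those of Slc26a2 (a sulfate transporter), Adamtsl2 (a matrix glycoprotein) and 2610528A11Rik, with B6 means of 1.56, 1.47 and 2.82 CPM and B6-13D2 means of 0.669, 0.545 and 1.498, and that of Ms4a6d (a membrane protein of macrophages). Ms4a6d had 1.03, 2.83 and 0.984 CPM in B6 and 0.599 and 0.106 in B6-13D2, and its B6 mean of 1.61 fell to 1.00 without replicate 2.

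At the threshold the sets met without a gap. The 2 members just inside had smaller ratios of 1.5003 and 1.5005, at chr18:42766942-42767192 (means of 1.4999 CPM in B6 and 0.99971 in B6-13D2) and chr17:49690888-49691979 (3.80 and 2.53). The 2 regions just outside had 1.4995 in both cases, at chr11:103236837-103237393 (3.08 and 2.05 CPM) and chr5:137060465-137061449 (6.15 and 4.10).

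All 1700 members passed the filter on low counts. In the edgeR test 152 of them (8.94%) were called lower in B6-13D2 than in B6, beside 0.306% of all tested regions called lower, and 1668 (98.1%) were called lower in D2 than in D2-13B6, beside 15.5%. In both comparisons together 145 members were called lower, beside 0.0961%. The rule used these comparisons, so nothing is read from the counts. Of the 152, 95 were repeat-core members, 18 AP-1 members and 39 members with neither. Without B6-13D2 replicate 1 or 2 the count of 152 fell to 70 or 68. The median log2 fold changes over the members were -0.77 and -1.15, and over all tested regions -0.01 and 0.02. In D2 against B6, which shares its libraries with both comparisons, 248 members were called lower (161 of them with the repeat core) and 903 higher (584 of them with AP-1), where 8.95% of all tested regions were called lower and 13.6% higher.

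Regions that lie near a member but belong to neither set were compared in the same test. Within 10 kb of a member, 18 of 4195 (0.429%) were called lower in B6-13D2 than in B6, beside 0.306% of all tested regions, and 1212 (28.9%) were called lower in D2 than in D2-13B6, beside 15.5%. The B6-13D2 calls were 9 of 213 (4.23%) near repeat-core members. Near AP-1 members they were 3 of 2121 (0.141%), and near members with neither 6 of 1922 (0.312%). By distance, the share called lower in D2 was 40.2% within 2 kb, 25.6% from 2 to 10 kb, 21.3% from 10 to 50 kb and 17.3% from 50 to 200 kb. Within 2 kb, 4.73% of the neighbours held the repeat core and 20.7% the AP-1 motif. Of the 62 neighbours within 2 kb of a repeat-core member, 59.7% held the core themselves. Within 10 kb of the mirrored regions, 329 of 3284 were called lower in D2. The count of 18 rested on the 2 B6-13D2 libraries and fell to 6 and 7 without replicate 1 and 2.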

How the data were processed

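The deposited table of raw counts holds whole-number counts of 11 ATAC-seq libraries over 248336 regions, and the authors applied no normalization to it, per the file headers and values. The submitters' processing notes name Trimmomatic 0.39, BWA 0.7.5, Picard 2.0.1, MACS 1.4.2, bedtools 2.9.2, edgeR 3.34.1 and mm10 without their roles. Whether reads were shifted for Tn5, and how reads with several best matches were counted, is not given in the sources used here. All 11 columns entered; each library's column sum served as its total, so that 1 CPM is 15.2 to 43.0 counts, and intervals and floors cover counting error only. No pair of libraries of a line agreed within sampling noise.

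Members, lists and sequence classes were chosen with earlier results of these data known. Named members are the 12 with the largest weaker ratio, the 6 with the highest B6 mean, up to 8 promoters, 6 of the repeat set and those at the threshold. Counts were tested with edgeR 4.0.16 (R 4.3.3; TMM scaling, filterByExpr, robust quasi-likelihood, 1 coefficient per line, all 11 libraries, Benjamini-Hochberg over all regions kept), checked on simulated data. DESeq2 1.42.0 was an alternative, with other scalings, no filter, a replicate block, fewer libraries and each library left out. CPM scaling put the median region 0.18 log2 higher in D2 than in D2-13B6, and TMM put it 0.03 higher; folds of CPM are relative to that shift. Sequence came from GRCm38.p6 (RefSeq), whose chromosome lengths hold every listed region, and genes from GENCODE M21. Coordinates are as listed. Shared sequence was found with BLAST 2.17.0 (at least 100 bp at 80% identity). Motifs were searched on both strands in the central 300 bp.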

Additional observations from a re-analysis of the deposited data

Results flagged for a closer look

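In 9 members the change with the D2 interval differed between the backgrounds in the interaction test (edgeR's quasi-likelihood test, adjusted p from 0.00826 to 0.0494), with the larger fall on the B6 background. The rule chose members on these same libraries, with a minimum level in B6, and the Bicd1 region below was named for its high B6 mean, so the direction and the p-values are a description. Of these 9 members, 6 hold the repeat core. Their direction is not that of most members. Over all 1700 members the median log2 interaction was 0.34, a larger fall on the D2 background, and 288 estimates were negative. The median was -0.28 in repeat-core members, 0.42 in AP-1 members and 0.34 in members with neither. The share of members called (0.529%) is below that of all tested regions (6.3%), and the rule asks for a fall in both backgrounds. Calls in either direction ran from 3 without D2 replicate 1 to 45 without D2-13B6 replicate 3. They were 4 without B6-13D2 replicate 2, 18 without D2 replicate 2 and 5 without D2 replicate 3. Calls with the larger fall on the B6 background were 0.588% of members without D2-13B6 replicate 3 and 0.706% without D2 replicate 2. The other calls in these refits had the larger fall on the D2 background. The Bicd1 intron region (chr6:149471110-149472212) is the named member among the 9 members. Its mean went from 12.7 to 2.37 CPM on the B6 background and from 3.51 to 1.61 on the D2 background. Its log2 interaction was -1.14 (SE 0.32, adjusted p = 0.0187 in the interaction test). A member on chromosome 19 (chr19:39248211-39249594), with the lowest adjusted p of the 9, went from 11.7 to 2.44 CPM and from 3.12 to 1.72; it was singled out after its values were seen.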

How the results depend on the processing

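The choice of thresholds moved the number of members more than the scaling did: it was 4197 at the lower minimum fold tried, 171 at a fold of 2 and 866 at a B6 mean of at least 2 CPM. TMM scaling gave 1975 members, 1581 of them shared with the 1700, and 40.1% and 14.4% of them had the AP-1 motif and the repeat core. Members with a weaker ratio of at least 2 (99) had them in 39.4% and 31.3%. Leaving out 1 library gave 1728 to 3105 members, 68 to 206 called lower in B6-13D2, 1549 to 1669 called lower in D2 against D2-13B6, 215 to 259 called lower in D2 against B6, and 3 to 45 with a called interaction. It gave 6 to 22 and 966 to 1327 called neighbours, and 5 to 20 and 13 to 35 called repeat-core regions on chromosome X, in the B6 and D2 backgrounds. With only the libraries of the contrast, 232 members and 37 neighbours were called lower in B6-13D2. Total counts in place of TMM gave 18 interaction calls and 17 chromosome X regions in the D2 background. Within 2 kb and 50 kb, 11 and 38 neighbours were called in B6-13D2 and 382 and 4409 in D2. The cause of these changes was not tested, apart from the wider or narrower thresholds and distances and the fewer libraries themselves. With the replicate number as a block (replicate block), 191, 1667 and 251 members were called in the 3 comparisons and 7 interactions. Deviations of same-numbered libraries correlated between -0.04 and 0.06, so the numbers share no more than a name. For the 27 named members, refits under the alternatives kept the sign of the log2 fold change in the 3 comparisons of lines. Of 432 refitted interactions of these members, 43 (in 13 members) had another sign, and 0 of those were called in either fit. In B6-13D2 against B6, 28 such refitted values lost the call and 15 gained one, and in D2 against D2-13B6 all 459 kept it. All 1700 members kept negative estimates in both backgrounds under RLE factors, total counts and DESeq2. B6-13D2 has 2 libraries, and 1 CPM is about 15.2 counts in the shallowest library; how this bears on the number of calls was not tested.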
